A study of Mus musculus with 16 samples.

Results

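The genes for 9 cytokine receptors of blood progenitors were examined, out of 21938 protein-coding genes of the mouse annotation. They were chosen by name. Kit and Flt3 mark stem and progenitor cells, Csf1r, Csf3r and Csf2rb serve the granulocyte and monocyte lineages, Epor serves the erythroid lineage, and Il6st, Tnfrsf1a and Il1rl1 carry shared or inflammatory signals. Peaks of all 16 deposited lists were merged where they overlapped by at least 1 bp, which gave 296215 regions. Of these, 254 lay in the 9 windows, each made of the gene body with 20 kb on either side and, for Kit, 160 kb upstream. A peak was present in all 16 libraries at 42 of the 254 regions, against 39310 of all regions.

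Accessibility had been measured by ATAC-seq, in which a transposase cuts and tags open DNA, in stem and progenitor cells of the blood (HSPCs), which had been sorted out of the bone marrow of mice. There were 4 libraries for each of 4 genotypes, every library starting from 50000 thawed cells and every cell pool coming from 2 mice of like age. WT mice carried Ep300 fl/fl without Cre, P300KO mice were Mx1-Cre;Ep300 fl/fl, TET2KO mice were Ep300 fl/fl;Tet2-/-, and P300KO_TET2KO mice were Mx1-Cre;Ep300 fl/fl;Tet2-/-. The study asked what the loss of the histone acetyltransferase p300 does to cells that lack Tet2, a dioxygenase that oxidizes methylated cytosine in DNA. According to the study's methods, mice of all genotypes received poly(I:C), which switches on the interferon-responsive Mx1 promoter that drives Cre. As background, this promoter is not specific to blood cells, and poly(I:C) itself induces interferon. Neither point was measured here. The study calls the assayed cells LSK, meaning lineage-negative, Sca1-positive and c-Kit-positive. The Kit protein was therefore part of the gate that chose the cells.

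Cytokine receptors sit in the cell membrane and relay the presence of a growth factor outside the cell. Kit, Flt3 and Csf1r are receptor tyrosine kinases, which bind stem cell factor, Flt3 ligand and macrophage colony-stimulating factor. Csf3r and Epor bind granulocyte colony-stimulating factor and erythropoietin and signal through Jak kinases. Csf2rb is the common beta chain for interleukin-3, interleukin-5 and granulocyte-macrophage colony-stimulating factor. Il6st, also called gp130, is the signal-transducing chain for the interleukin-6 family. Tnfrsf1a is a receptor for tumour necrosis factor, and Il1rl1, also called ST2, binds interleukin-33. Progenitors are known to hold open chromatin at receptor genes of several lineages before they commit to one, so an open start is not a measure of expression.

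The lists hold no read counts, and the depth of a library is unknown here. Lists of replicates 1 and 2 of each genotype (called set 1, since their labels name a merged peak file) held 86039 to 110055 peaks, and lists of replicates 3 and 4 (set 2) held 130610 to 137335. Peaks that reached a −log10 q of 2 made up 45.0 and 63.2% in WT replicates 1 and 2, 80.6 and 71.3% in P300KO, 82.0 and 80.7% in TET2KO, and 86.2 and 93.4% in P300KO_TET2KO, and between 92.2 and 97.4% in set 2. These shares therefore moved with genotype inside set 1. Fits carried a term for the set, and their part in the results below was not tested beyond the values given within each set. A region without a peak was not detected at that depth, which is not the same as closed. Since these were bulk samples, fewer cells with an open region and less opening per cell cannot be told apart.

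The sequences that the results turn on are given here for 7 regions, each as 201 bases centred on the summit of the region in the mm10 build, taken from the GRCm38.p6 reference. They show the distal Kit and Flt3 elements, the Flt3 region called for p300 loss, the strongest Csf2rb element away from a start, and the Il1rl1 regions described below. Capitals mark matches on either strand to short strings known to be bound by blood transcription factors. The Gata string was AGATAA, with TGATAA as its other form, and the Ets string was AGGAAG. The Runx string was TGTGGT, with TGCGGT as its other form, and the Cebp string was TTGCNNAA, with TTACNNAA as its other form. The Myb string was TAACTG, and TAACGG counted for Myb as well, as did CAACTG with its relative CAACGG. The Tal1 string was CAGATG. Matches may overlap one another. Positions in kb count from the annotated gene start, with upstream negative.
Kit, −114.2 kb, chr5:75460586-75460786, plus strand: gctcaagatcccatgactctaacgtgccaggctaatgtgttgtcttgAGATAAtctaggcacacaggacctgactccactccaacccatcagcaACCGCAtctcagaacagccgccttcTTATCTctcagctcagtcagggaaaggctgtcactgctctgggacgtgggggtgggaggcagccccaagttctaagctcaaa
Flt3, −18.0 kb, chr5:147418432-147418632, plus strand: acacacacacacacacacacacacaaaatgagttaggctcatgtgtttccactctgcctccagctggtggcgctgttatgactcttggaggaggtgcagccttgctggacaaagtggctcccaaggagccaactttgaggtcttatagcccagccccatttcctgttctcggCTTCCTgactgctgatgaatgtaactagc
Flt3, +59.3 kb, chr5:147341119-147341319, plus strand: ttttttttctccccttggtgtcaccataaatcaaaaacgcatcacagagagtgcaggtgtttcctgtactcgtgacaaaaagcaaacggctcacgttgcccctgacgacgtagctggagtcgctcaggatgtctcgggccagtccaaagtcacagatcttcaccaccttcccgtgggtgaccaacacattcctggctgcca
Flt3, +33.9 kb, chr5:147366448-147366648, plus strand: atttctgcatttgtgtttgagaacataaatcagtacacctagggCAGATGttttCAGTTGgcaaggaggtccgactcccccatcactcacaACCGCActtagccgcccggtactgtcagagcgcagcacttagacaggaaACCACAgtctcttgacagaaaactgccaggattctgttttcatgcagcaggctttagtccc
Csf2rb, −4.8 kb, chr15:78320900-78321100, plus strand: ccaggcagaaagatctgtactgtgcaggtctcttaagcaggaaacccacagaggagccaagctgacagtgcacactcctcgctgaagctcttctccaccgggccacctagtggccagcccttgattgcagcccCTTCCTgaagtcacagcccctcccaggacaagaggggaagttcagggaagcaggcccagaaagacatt
Il1rl1, −19.5 kb, chr1:40409974-40410174, plus strand: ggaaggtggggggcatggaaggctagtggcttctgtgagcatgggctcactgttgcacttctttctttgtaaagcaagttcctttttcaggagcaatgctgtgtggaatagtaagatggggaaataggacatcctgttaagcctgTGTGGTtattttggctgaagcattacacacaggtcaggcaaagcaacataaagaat
Il1rl1, −0.1 kb, chr1:40429347-40429547, plus strand: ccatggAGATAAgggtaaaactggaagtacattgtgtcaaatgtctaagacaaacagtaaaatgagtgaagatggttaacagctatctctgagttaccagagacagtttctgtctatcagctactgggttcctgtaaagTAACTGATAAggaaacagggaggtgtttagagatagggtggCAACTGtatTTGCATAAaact

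The Kit window of −114.2 kb held 2 Gata strings and 1 Runx string, and distal Kit elements bound by Gata factors are known from earlier work. The Flt3 window of +59.3 kb held none of these strings. The Flt3 window of +33.9 kb held 2 Runx strings, 1 Myb string and 1 Tal1 string. Upstream of Il1rl1, the window of −0.1 kb held 2 Gata, 2 Myb and 1 Cebp string, and a Myb and a Gata string in it overlapped. As background, 11.9% of the 39310 shared regions held a Gata string in a window of the same length, 41.6% an Ets, 27.2% a Runx, 12.6% a Cebp, 20.3% a Myb and 14.2% a Tal1 string. Among the 42 shared receptor regions the counts were 4 for Gata, 18 for Ets, 9 for Runx, 6 for Cebp, 5 for Myb and 5 for Tal1. A match describes letters and does not show that a factor was bound.

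The start sites of 7 of the 9 receptor genes were open in every library, and they were among the stronger peaks of every list. Strength is given as the rank percentile, the place of a region's strongest peak by −log10 p within its own list, where 100 is the strongest and 0 stands for no peak. The Il6st start site was highest, at 98.6 ± 0.490 (SD over 16 libraries here and in the next sentences), followed by Flt3 at 97.5 ± 0.760 and Kit at 96.3 ± 1.22. Tnfrsf1a was at 92.6 ± 1.91, Epor at 91.8 ± 1.77 at a region 0.9 kb inside the gene, Csf2rb at 86.8 ± 2.501 and Csf3r at 85.8 ± 5.08. Within a library Il6st ranked above Flt3 in 15 of 16 lists, Flt3 above Kit in 14, and Kit above Tnfrsf1a in 16. Tnfrsf1a ranked above Epor in 11 and Csf2rb above Csf3r in 8 of 16, so neither of these neighbours was set apart from the other. The stem and progenitor receptors and gp130 thus held the first places, with the myeloid receptors Csf2rb and Csf3r below them. Csf3r was the one most divided by set, at 81.4 ± 2.86 in set 1 and 90.2 ± 1.61 in set 2 (n = 8 each).

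**Figure D1:**
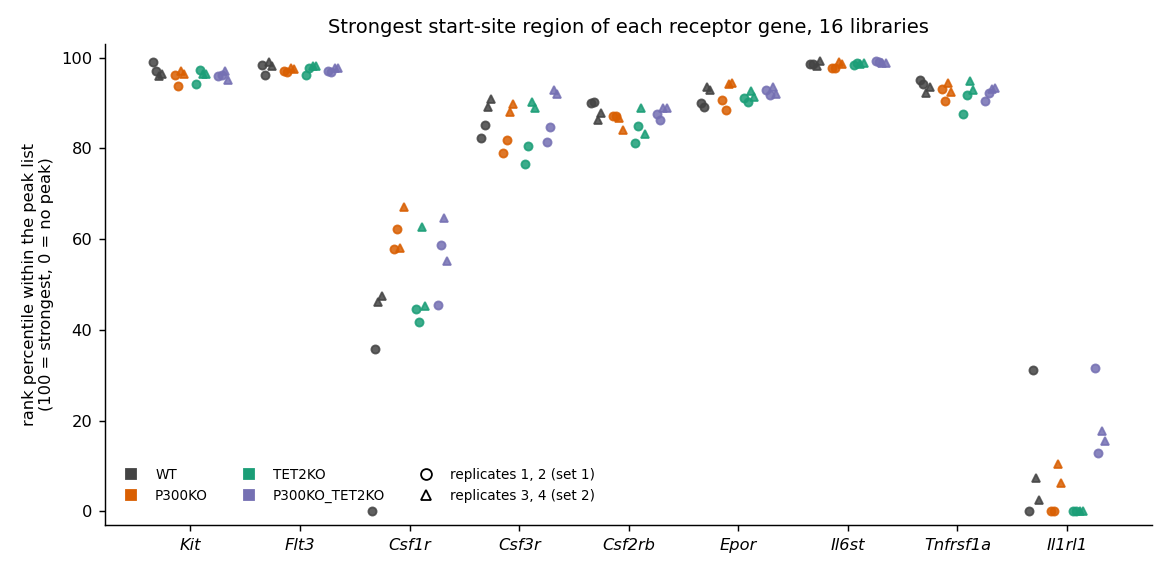
Rank percentile of the start-site region with the highest mean over the 16 libraries at each receptor gene (vertical axis, 100 is the strongest peak of a list and 0 is no peak) in each of the 16 libraries, coloured by genotype, with circles for set 1 and triangles for set 2. Il6st, Flt3 and Kit lie above 93 in every library, while Csf1r reaches 67.1 at most and Il1rl1 31.6 at most.

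Csf1r and Il1rl1 stood apart from the others. At Csf1r on chromosome 18, which codes for the macrophage colony-stimulating factor receptor, the strongest region within 500 bp of an annotated start lay at +5.3 kb and had a peak in 15 libraries, with a rank percentile of 49.5 ± 16.1. The most accessible Csf1r region lay at +8.1 kb, within 3 kb of a start, and ranked at 94.0 ± 2.61 in all 16 libraries. The Csf1r window held 4 shared regions in all, at −9.7, +8.1, +20.2 and +30.9 kb, and the last of them lies in an exon and also within Hmgxb3. At Il1rl1, the regions next to the start were found in 9 of 16 libraries (−0.1 kb) and in 7 (+0.8 kb), and their values are given with the comparison of presence. Shared regions of the Il1rl1 window lay at −19.5 and −10.9 kb, at the start of the neighbouring gene Il18r1, which codes for an interleukin-18 receptor chain, and further inside Il18r1. No shared region therefore lay in the Il1rl1 gene body itself.

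The genes differed in how many regions surrounded them. In WT, Tnfrsf1a had the densest window with 2.21 ± 0.471 regions per 10 kb (SD, n = 4), above 98.5% of protein-coding genes, whose median was 0.799. Csf2rb followed with 1.65 ± 0.185, Flt3 with 1.57 ± 0.240, Il1rl1 with 1.38 ± 0.463, Epor with 1.29 ± 0.112, Csf3r with 1.17 ± 0.409, Csf1r with 1.05 ± 0.140, Kit with 0.984 ± 0.126 and Il6st with 0.901 ± 0.334. From Csf2rb downwards each gene differed from the next in this order by less than the larger of their SDs. Il6st thus combined the strongest start site with the sparsest window. The low place of Kit depended on its long window, since with 20 kb on either side Kit had 1.42 regions per 10 kb. The windows of Tnfrsf1a and Il1rl1 also hold parts of other genes, Scnn1a and Plekhg6 for the former and Il18r1 for the latter.

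Flt3 had the most shared regions, in the longest window after that of Kit. As a share of the regions in a window, Epor (36.4%) and Tnfrsf1a (33.3%) stood above Flt3 (28.6%). Its window on chromosome 5 (147310741 to 147420489, minus strand) held 35 regions, 10 of them in all 16 libraries, and none lay at the start of another gene. These ran from −18.0 kb to +85.1 kb, and the region at −18.0 kb ranked at 94.4 ± 2.38, close to the start site. Introns held those at +7.7 kb (85.5 ± 3.93), +33.9 kb (90.9 ± 2.68), +37.2, +60.6 and +68.7 kb, and the region at +59.3 kb (91.3) spanned a coding exon. Kit had the most regions but few of them were shared: of 88, only 3 were found in all 16 libraries and 41 in 1 library. The 3 were the start site, an intronic region at +7.2 kb (63.8 ± 6.64) and a region at +96.6 kb, downstream of the gene (51.5). Far upstream of Kit, regions at −114.2 and −109.0 kb were each found in 15 libraries, all but WT replicate 1, and ranked at 55.9 ± 18.9 and 51.9 ± 20.2 with that list at 0. The region at −109.0 kb averaged 38.2 in set 1 and 65.6 in set 2, a wider gap than at any of the 7 start sites.

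At the granulocyte and erythroid receptors, some of the shared regions were the starts of other genes. Csf2rb had 5 shared regions among 27, including an upstream element at −4.8 kb (90.4 ± 3.24), which ranked above its own start site on average, and one at −20.1 kb at the start of its paralogue Csf2rb2. Since Csf2rb and Csf2rb2 are close copies, reads could be assigned to either, and their regions are uncertain to that extent. Of the 3 shared regions in the Csf3r window only the start site belonged to Csf3r, the others being the starts of Mrps15 (96.8) and Oscp1 (94.8). Of the 4 in the Epor window, the highest, at 99.4 ± 0.291, was the start of Swsap1. Tnfrsf1a had 6 shared regions and Il6st 3. Over the 9 windows, 16.5% of regions were found in all 16 libraries and 38.2% in 1 library, compared with 13.3 and 45.6% of all regions.

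**Figure D2:**
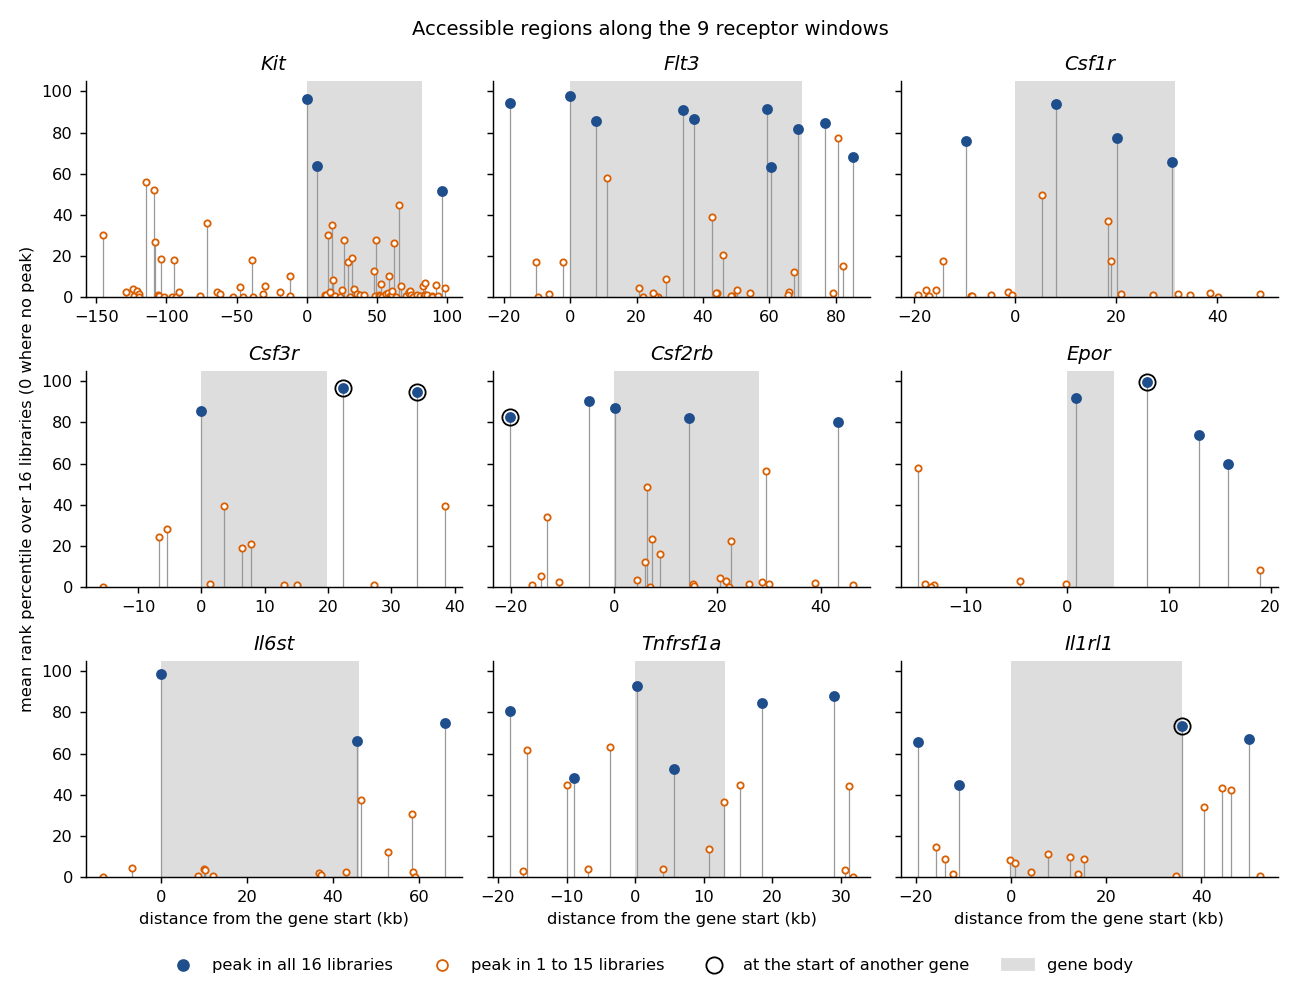
Mean rank percentile over the 16 libraries (vertical axis, a list without a peak counted as 0) of all 254 regions, by distance in kb from the start of each receptor gene (horizontal axis), with the gene body shaded. Filled points are regions with a peak in all 16 libraries, open points are those with a peak in 1 to 15, and black rings mark shared regions at the start of another gene. Flt3 shows 10 filled points along its length, while Kit shows 3.

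The first comparison by genotype was of the number of regions in each window, fitted with limma over 20248 gene windows with the set as a term. None of the 9 receptors was called in any of the contrasts at an adjusted p of 0.05. Over all gene windows the called share was 0.00494% higher and 0.0% lower in P300KO_TET2KO against TET2KO and for p300 loss over both Tet2 backgrounds, and 0.0% in either direction in the other contrasts. At an unadjusted p of at most 0.05, 1 receptor passed for Tet2 loss over both p300 backgrounds, where 9.57% of all windows passed. For p300 loss over both backgrounds 0 receptors passed (9.77% of windows), and 0 passed in P300KO against WT (9.14%), P300KO_TET2KO against TET2KO (7.01%), TET2KO against WT (9.24%) and P300KO_TET2KO against P300KO (6.45%). The receptor that passed was Csf1r, with 8.75 ± 0.886 regions in the 8 libraries without Tet2 and 7.75 ± 1.16 in the 8 with it, a difference of 1.0 (SE 0.435, limma adjusted p = 0.501). By library, Csf1r had 7, 7, 7 and 9 regions in WT, 8, 6, 9 and 9 in P300KO, 9, 7, 9 and 9 in TET2KO, and 8, 9, 10 and 9 in P300KO_TET2KO. The groups overlapped.

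Kit had 22, 25, 30 and 26 regions in WT, 21, 14, 32 and 32 in P300KO, 18, 18, 32 and 35 in TET2KO, and 22, 25, 30 and 31 in P300KO_TET2KO. In each genotype the set 2 libraries held more than the set 1 libraries, and the genotypes overlapped. Flt3 had 15, 15, 20 and 19 regions in WT, 15, 14, 19 and 20 in P300KO, 14, 17, 21 and 19 in TET2KO, and 14, 18, 20 and 19 in P300KO_TET2KO. Loss of p300 over both Tet2 backgrounds moved the Flt3 number by −0.125 (SE 0.658, limma adjusted p = 0.962) and the Kit number by 0.125 in both definitions of the Kit window. For Il1rl1 the difference of TET2KO from WT was −1.75 regions (SE 0.885, limma adjusted p = 0.568), with −1.5 in set 1 and −2.0 in set 2. Epor, which had the fewest regions, had the narrowest range in number, from 4 to 7 over the 16 libraries. Relative to the mean its SD (0.806 on 5.63) was not below that of Csf1r (1.13 on 8.25).

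**Figure D3:**
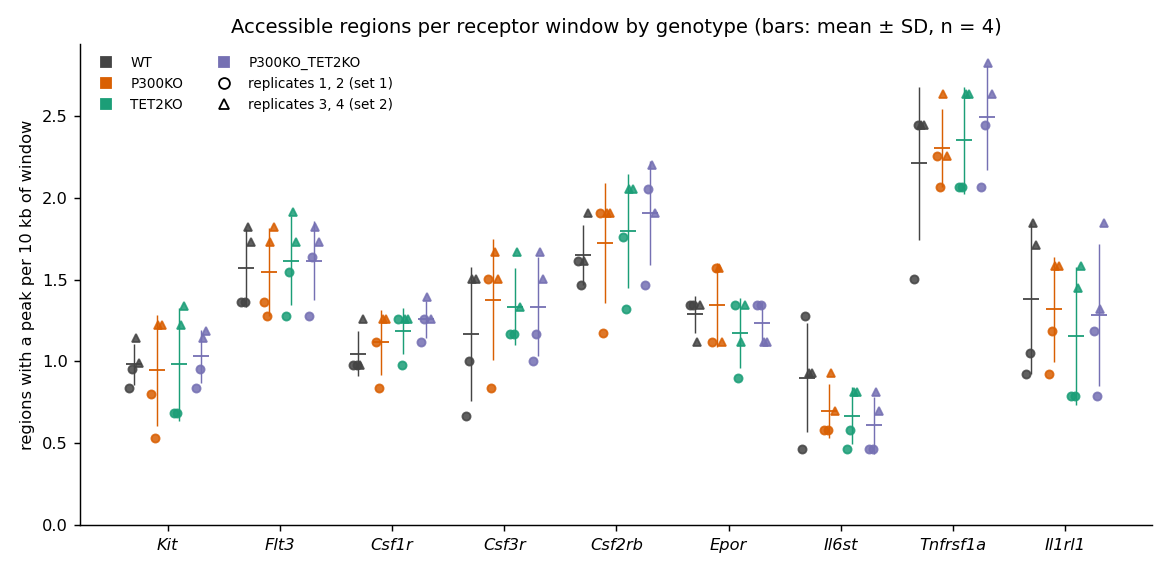
Regions with a peak per 10 kb of window (vertical axis) for each receptor in each of the 16 libraries, coloured by genotype, with circles for set 1 and triangles for set 2, and with the mean and SD of the 4 libraries of a genotype as a bar. The genotypes overlap in every receptor, and for Kit and Flt3 the triangles of a genotype lie above its circles.

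The second comparison was of presence. A region was called gained or lost when all 4 libraries of one genotype held a peak there and 0 of the other 4 did, which is a description with no test. In P300KO_TET2KO against TET2KO, 1 of the 254 receptor regions was gained and 0 were lost, where the shares over all regions with a peak in either genotype were 0.0938 and 0.0201%. It was the Il1rl1 region at −0.1 kb, chr1:40429050-40429592, 1 of the 2 regions at its start. Its rank percentiles were 31.6, 12.9, 17.6 and 15.5 in P300KO_TET2KO, with no peak in any TET2KO library. WT had no peak in replicate 1 and 31.1, 7.29 and 2.504 in the others, and P300KO had peaks in replicates 3 and 4, at 10.4 and 6.19, but none in replicates 1 and 2. The P300KO_TET2KO libraries lay above all but 1 of the other 12 libraries, and every value was in the lower part of its list. The other start-site region of Il1rl1, at +0.8 kb, did have peaks in TET2KO replicates 3 and 4 (15.2 and 5.68), in WT replicates 3 and 4 (30.6 and 8.31), in P300KO replicates 3 and 4 (26.0 and 3.59) and in P300KO_TET2KO replicate 4 (17.6), so that TET2KO was not without a peak at the Il1rl1 start. The peak at −0.1 kb was gained too when the −log10 q of a peak had to reach 2, but not among the strongest 50000 peaks of each list. With those peaks 0 receptor regions were gained and 0 lost in this contrast, beside 0.234 and 0.142% of all regions with such a peak in either genotype.

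In the other contrasts 0 receptor regions were gained or lost. The shares over all regions with a peak in either genotype were 0.0154% gained and 0.0122% lost in P300KO against WT, 0.017 and 0.00849% in TET2KO against WT, and 0.0994 and 0.0469% in P300KO_TET2KO against P300KO. A looser rule asked for a peak in 3 or more libraries of one genotype and in no more than 1 of the other. Under it, P300KO_TET2KO against TET2KO had 4 gained receptor regions (1.86% of all regions with a peak in either genotype) and 1 lost (0.82%). The receptor counts are out of all 254 regions, whether or not either genotype held a peak, so count and share have unlike bases. The gained ones lay at Kit −47.7 and +40.9 kb, Flt3 −2.2 kb and Il1rl1 −0.1 kb, and the lost one at Kit −29.6 kb. TET2KO against WT had 2 gained (0.769%), at Csf3r +38.5 and Csf2rb +8.9 kb, and 2 lost (0.669%), both at Il1rl1, −15.7 and −0.1 kb. P300KO against WT had 1 gained (0.871%), at Csf2rb +6.0 kb, and 1 lost (0.687%), at Il6st +52.8 kb. P300KO_TET2KO against P300KO had 1 gained (1.7%), at Kit +40.9 kb, and 1 lost (0.885%), at Flt3 +82.3 kb. By this rule the Il1rl1 region at −0.1 kb was thus lost with Tet2 and gained when p300 was lost as well, a pair of contrasts that share the TET2KO libraries.

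The third comparison was of rank percentile at the 42 shared receptor regions, fitted with limma over all 39310 shared regions with the set as a term and adjusted over all of them. Differences are in percentile points. In P300KO against WT, 0 of the 42 were called (over all regions 0.0% higher and 0.0102% lower), and 6 passed an unadjusted p of at most 0.05, as did 13.2% of all regions. In P300KO_TET2KO against TET2KO, 0 were called (0.00763% higher and 0.0611% lower) and 4 passed unadjusted (5.57%). In TET2KO against WT, 0 were called (0.0% in either direction) and 4 passed unadjusted (8.75%). In P300KO_TET2KO against P300KO, 0 were called (0.0102% higher and 0.0941% lower) and 4 passed unadjusted (7.04%). Over both backgrounds at once, 1 receptor region was called lower for p300 loss (0.552% of all regions lower and 0.109% higher) and 0 for Tet2 loss (0.201% lower and 0.0458% higher), with 10 and 6 passing unadjusted against 12.8 and 10.7%. The median difference over the 42 was −0.37 points for p300 loss and 0.40 for Tet2 loss, beside 0.02 and 0.11 over all shared regions.

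The region called was the Flt3 region at +59.3 kb, chr5:147340600-147341729, whose summit lies in exon 20 of Flt3, a coding exon. Its rank percentiles were 92.1, 94.0, 93.6 and 93.1 in WT and 90.6, 90.0, 90.2 and 91.8 in P300KO. They were 92.7, 91.3, 91.6 and 92.6 in TET2KO and 89.6, 86.8, 90.5 and 90.0 in P300KO_TET2KO. In either Tet2 background every library without p300 lay below every library with it, although P300KO and TET2KO libraries overlapped. The share of all regions separated in this way was not counted. Without p300 the Flt3 region ranked 2.70 points lower over both backgrounds, at 89.9 ± 1.42 against 92.6 ± 0.944 (SD, n = 8 each). The SE was 0.596 and the limma adjusted p = 0.0449. The change was −2.59 points in P300KO against WT (limma adjusted p = 0.23) and −2.81 in P300KO_TET2KO against TET2KO (limma adjusted p = 0.502), and −3.29 in set 1 and −2.12 in set 2. Its rank was lower without Tet2 as well, by −1.30 points over both p300 backgrounds. That difference did not pass (SE 0.579, limma adjusted p = 0.439, fitted over regions with a peak in at least 4 libraries). The region stayed among the upper peaks of every list. The call was held by a narrow margin: leaving out WT replicate 1 kept it (adjusted p = 0.0262), and leaving out any 1 of the other 15 libraries lost it, with adjusted p from 0.059 to 0.104 and differences from −2.34 to −2.86. It was lost as well by fold enrichment in place of rank (limma adjusted p = 0.0738), with the replicate block (limma adjusted p = 0.0802) and without a term for the set (limma adjusted p = 0.412).

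Over all shared regions, 50.7% had a higher mean without p300. Around the Flt3 region called, 8 of the 10 shared Flt3 regions had a lower and 2 a higher mean, with a median difference of −1.43 points. Those at +7.7 kb and +33.9 kb differed by −2.98 (limma adjusted p = 0.295) and −2.13 (limma adjusted p = 0.272). The neighbouring intronic region at +60.6 kb went the other way, by 9.65 points (SE 3.31, limma adjusted p = 0.208). Its rank percentiles were 60.9, 52.4, 49.0 and 65.7 in WT, 66.9, 63.9, 68.4 and 72.9 in P300KO, 59.0, 52.2, 69.7 and 56.9 in TET2KO, and 69.3, 66.3, 69.0 and 66.3 in P300KO_TET2KO. The libraries without p300 were closer to one another there than those with it, and the groups overlapped. At the Flt3 start site the difference was −0.36 points, and at the region +85.1 kb, which lies in Urad, it was Tet2 loss that went with a higher rank (10.9 points, limma adjusted p = 0.323).

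None of the start sites was called. At the 7 that were found in all 16 libraries, the difference for p300 loss ran from −0.63 to 0.85 points (lowest limma adjusted p = 0.615) and that for Tet2 loss from −1.18 to 0.38 (lowest limma adjusted p = 0.572). Csf3r and Csf2rb had differences of opposite sign in the Tet2 backgrounds. Csf3r differed by −2.24 in P300KO against WT and by 3.69 in P300KO_TET2KO against TET2KO (limma adjusted p = 0.537 and 0.825), and Csf2rb by −2.31 and 3.39 (limma adjusted p = 0.545 and 0.896). For both the groups overlapped in either contrast, and the interaction did not pass (limma adjusted p = 0.931 for each). The lowest value at these 7 start sites in a single contrast was −4.02 for Csf2rb in TET2KO against WT (limma adjusted p = 0.554).

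The Csf1r start-site region at +5.3 kb was missing from WT replicate 1 and was fitted with that list at 0, together with the other regions found in at least 4 libraries. It ranked at 35.8, 46.1 and 47.5 in WT replicates 2 to 4, and at 57.7, 62.2, 58.0 and 67.1 in P300KO. In TET2KO it ranked at 44.6, 41.7, 62.7 and 45.3, and in P300KO_TET2KO at 45.4, 58.7, 64.6 and 55.2. WT and P300KO did not overlap, while TET2KO and P300KO_TET2KO did. How often such a separation occurs over all regions was not counted, so no result is read from it. P300KO was higher than WT by 28.9 points (SE 9.24, limma adjusted p = 0.341), with 42.1 in set 1 and 15.7 in set 2, and by 19.9 without WT replicate 1. Over both Tet2 backgrounds the difference for p300 loss was 18.1 points (SE 6.53, limma adjusted p = 0.256).

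**Figure D4:**
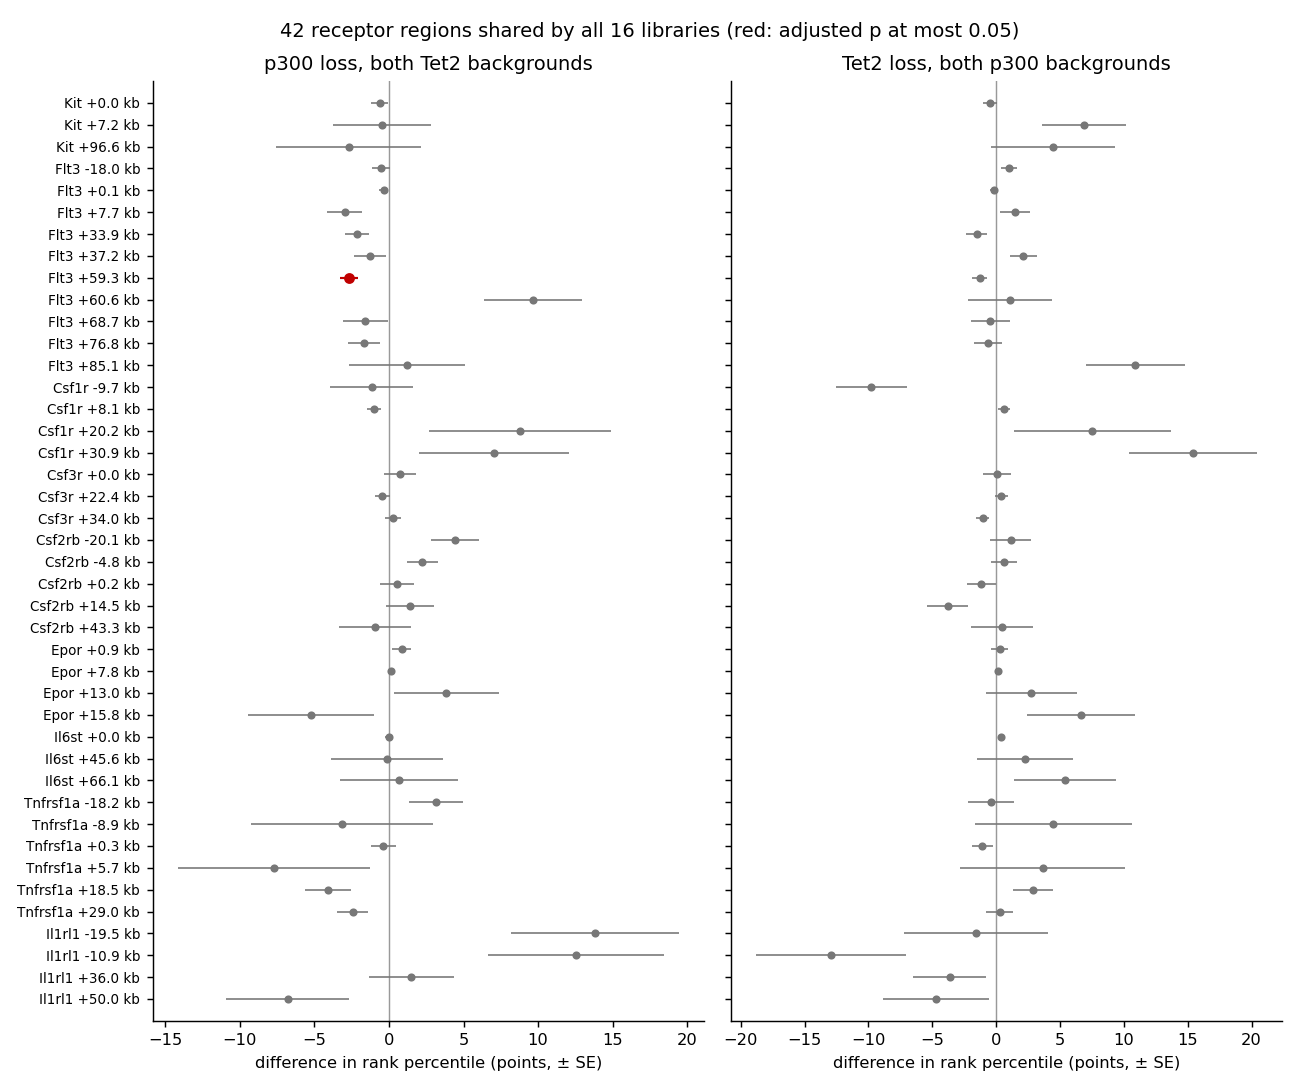
Differences in rank percentile (horizontal axes, points, with the SE of the fit) at the 42 receptor regions shared by all 16 libraries, for p300 loss over both Tet2 backgrounds on the left and Tet2 loss over both p300 backgrounds on the right, ordered by gene and distance from the gene start. The Flt3 region at +59.3 kb, in red, is the only one with an adjusted p of at most 0.05, and the widest interval in either panel belongs to the Tnfrsf1a region at +5.7 kb.

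Among the 42 shared receptor regions, the lowest p for Tet2 loss belonged to Csf1r regions. At −9.7 kb the rank percentiles were 75.7, 73.6, 87.5 and 89.9 in WT, 82.6, 63.8, 86.5 and 88.1 in P300KO, 59.0, 58.1, 82.4 and 87.0 in TET2KO, and 60.9, 69.9, 73.7 and 78.4 in P300KO_TET2KO. The difference was −9.76 points (SE 2.79, limma adjusted p = 0.193), and it was negative in all 4 combinations of set and p300 background. At +30.9 kb, inside Csf1r and Hmgxb3, it was 15.4 points (SE 5.04, limma adjusted p = 0.275), with 25.6 in set 1 and 5.19 in set 2. Within that region WT replicate 1 at 22.9 and P300KO replicate 2 at 28.0 were the lowest, and the groups overlapped. When ranks were taken among the shared regions only, both passed the threshold (adjusted p = 0.0396 and 0.0467). At the main accessible Csf1r region, +8.1 kb, neither loss of p300 nor of Tet2 gave an unadjusted p of 0.05 or less.

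Both shared regions upstream of Il1rl1 varied widely between libraries. The region at −19.5 kb ranked at 27.3, 70.9, 74.4 and 71.8 in WT, 69.5, 56.8, 79.8 and 79.3 in P300KO, 58.4, 21.9, 70.1 and 73.4 in TET2KO, and 63.7, 68.6, 79.9 and 81.4 in P300KO_TET2KO. Values without p300 were higher in the mean by 13.8 points (SE 5.64, limma adjusted p = 0.303), with 20.01 in set 1 and 7.64 in set 2. When ranks were taken among the shared regions only, this difference passed the threshold (14.0 points, limma adjusted p = 0.0418). A pair of low set 1 libraries, WT replicate 1 and TET2KO replicate 2, made up much of that: the difference was 9.64 without the former and 9.60 without the latter. The region at −10.9 kb differed by 12.6 points for p300 loss (limma adjusted p = 0.381) and by −12.9 points for Tet2 loss (limma adjusted p = 0.449). All 4 shared regions of the Il1rl1 window, some of them at the start of or inside Il18r1, had a lower mean without Tet2. Over all shared regions 53.7% had a higher mean without Tet2. At the Il1rl1 window 0 of these differences passed the threshold.

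Tnfrsf1a at +18.5 kb, a region inside the next gene Plekhg6, ranked at 82.8, 85.8, 90.5 and 89.3 in WT and 81.3, 68.6, 86.5 and 81.9 in P300KO. The difference of −7.52 points (SE 2.1995, limma adjusted p = 0.188) did not pass, and the groups overlapped. It was −9.32 in set 1 and −5.72 in set 2, and the lowest of the 16 libraries, at 68.6, was P300KO replicate 2 in set 1. In P300KO_TET2KO against TET2KO the difference at this region was −0.64 points (limma adjusted p = 0.9996), and in P300KO_TET2KO against P300KO it was 6.31 (limma adjusted p = 0.532). Whether the p300 effect differed between the Tet2 backgrounds was tested with the limma interaction term, which 0 of the 42 shared receptor regions passed (lowest adjusted p = 0.931, with 3 at an unadjusted p of at most 0.05, beside 4.59% of all shared regions). These 3 were the Csf3r and Csf2rb start sites and Tnfrsf1a +18.5 kb. Over all 39310 regions 0 passed it as well, so that the test had no call anywhere.

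Regions missing from some lists were compared with a list without a peak counted as 0, over the 128335 regions with a peak in at least 4 libraries, 125 of them in the receptor windows. None of the 125 was called by limma in any contrast, where the called share of all these regions was at most 0.12% in one direction, and the lowest adjusted p was 0.0591. That value belonged to a region at Il1rl1 +40.5 kb, inside Il18r1. It ranked at 70.4, 79.2 and 60.8 in WT replicates 2 to 4 with no peak in replicate 1, and at 65.2, 34.9, 72.5 and 73.6 in P300KO. TET2KO libraries gave 8.69, none, none and 39.6, and P300KO_TET2KO libraries gave 14.2, none, none and 28.6. Apart from WT replicate 1, the lowest library with Tet2 was at 34.9, and of the 8 libraries without Tet2 only TET2KO replicate 4 lay above that. The difference for Tet2 loss was −45.7 points (SE 9.39), with −36.9 in set 1 and −54.5 in set 2, and −54.5 without WT replicate 1.

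Upstream of Kit, the region at −114.2 kb ranked at 53.7, 63.9 and 59.6 in WT replicates 2 to 4 with no peak in replicate 1, and at 69.5, 52.3, 70.9 and 75.4 in P300KO. In TET2KO it ranked at 47.8, 47.1, 36.4 and 48.3, and in P300KO_TET2KO at 65.1, 58.2, 77.7 and 69.0. The TET2KO and P300KO_TET2KO libraries did not overlap, while WT and P300KO did. The share of all regions without overlap in that contrast was not counted, so this is a description only. The difference for p300 loss was 22.7 points (SE 7.37, limma adjusted p = 0.213) with the missing peak as 0, and 15.96 points without WT replicate 1. The intronic Kit region at +26.5 kb, found in 14 libraries and missing from WT replicates 1 and 2, was higher in the mean without p300 as well, by 19.9 points (SE 5.46, limma adjusted p = 0.149). The +8.9 kb region of Csf2rb, in 9 libraries, differed by 15.9 points (limma adjusted p = 0.214), 29.2 in set 2 and 2.58 in set 1.

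**Figure D5:**
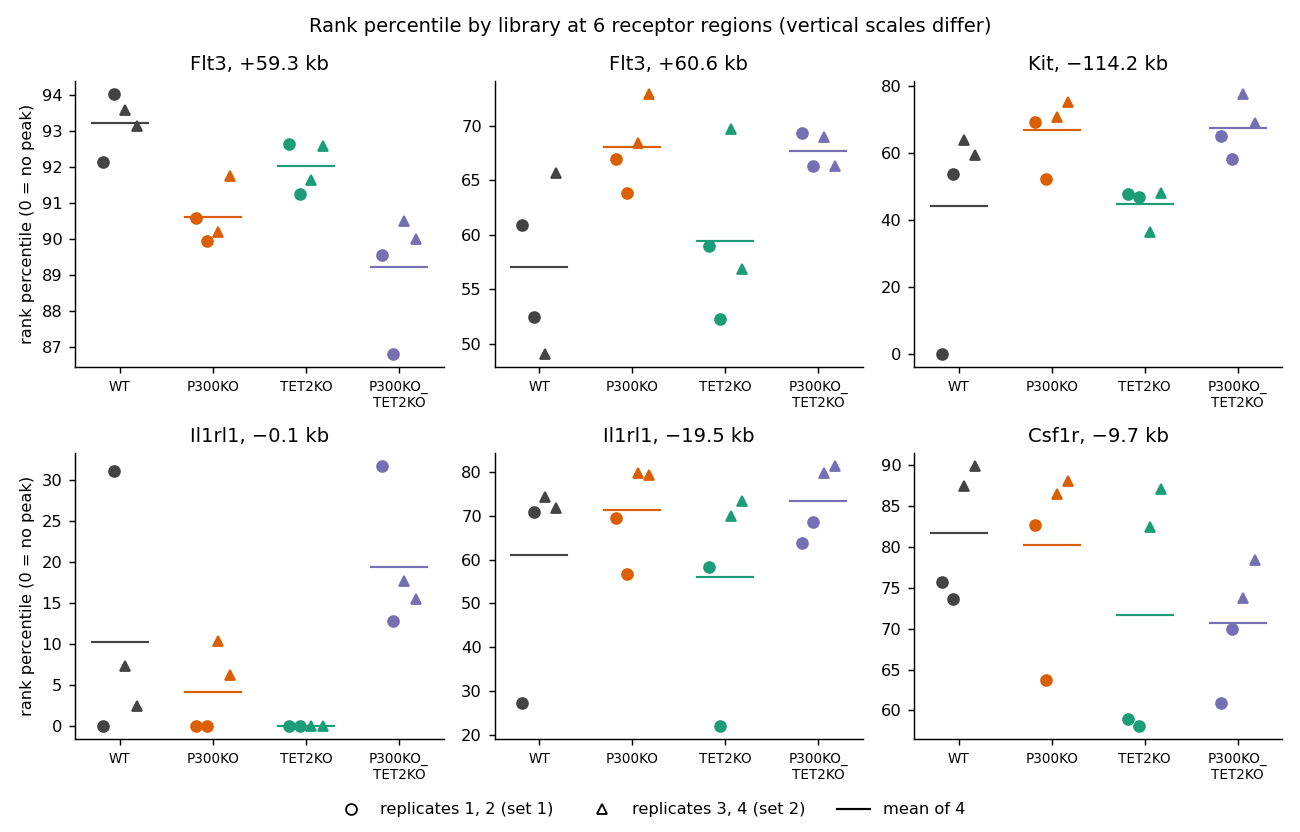
Rank percentile (vertical axes, 0 is no peak, scales differ between panels) in each library at 6 receptor regions by genotype, with circles for set 1, triangles for set 2 and a line at the mean of 4. At Flt3 +59.3 kb the libraries without p300 lie below those with it in either Tet2 background, at Kit −114.2 kb the P300KO_TET2KO libraries lie above the TET2KO libraries, and at Il1rl1 −0.1 kb no TET2KO library has a peak. For Flt3 and Kit, the share of all regions separated in this way was not counted.

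Other genes of the same system were examined as 44 further cytokine receptors and 12 ligands. A peak within 500 bp of a start was found in all 16 libraries for 36 of the 44 receptors and 8 of the 12 ligands. Receptors for interferon gamma (Ifngr1, 99.2), for transforming growth factor beta (Tgfbr1, 99.6) and for type 1 interferon (Ifnar1, 98.5) ranked with Il6st. Il1rap, the co-receptor that Il1rl1 shares with the interleukin-1 receptor, ranked at 98.3, far above Il1rl1. The Il9r start was found in 0 libraries, and those of Il2ra and Il2rb, receptor chains of lymphocytes, in 6 and 10. Among ligands, the starts of Csf3 and Il3 were found in 0 libraries, while those of Epo and Il6 ranked at 95.6 and 92.3. By number of regions 0 of the 44 receptors and 0 of the 12 ligands were called by limma in any contrast, and the counts at an unadjusted p of at most 0.05 were as follows. For p300 loss over both backgrounds 8 receptors and 1 ligand passed, beside 9.77% of all windows, and for Tet2 loss 3 receptors and 2 ligands passed, beside 9.57%. Of the 8 receptors, 4 had more and 4 fewer regions without p300. In P300KO against WT 2 receptors and 1 ligand passed (9.14%), in P300KO_TET2KO against TET2KO 6 and 0 (7.01%), in TET2KO against WT 5 and 0 (9.24%), and in P300KO_TET2KO against P300KO 1 and 2 (6.45%). The lowest p belonged to Cxcr4 (limma adjusted p = 0.369) among receptors for p300 loss over both backgrounds, and to Csf3 among ligands for Tet2 loss (limma adjusted p = 0.391).

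The sort was checked at the start sites of marker genes. A peak in all 16 libraries was found for 8 of 10 HSPC markers, and the others, Ly6a (which codes for Sca1) and Slamf1, were missing from 1 WT library each. It was found for 3 of 3 megakaryocyte markers, 3 of 5 B cell markers, 2 of 6 granulocyte and monocyte markers, 2 of 4 stromal and endothelial markers, 1 of 5 T cell markers, 1 of 4 erythroblast markers and 1 of 3 mast cell markers. Defining markers at 0 in all libraries were Cd3e, Ly6g, Klf1 and Tpsb2, as were both liver genes, Alb and Apoa1.

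As a description of likeness, the genes whose number of regions followed a receptor most closely over the 16 libraries, after each set was centred, were listed for 3 receptors. They were Vdac1 for Kit (Pearson r = 0.859), Npm1 for Flt3 (r = 0.846) and Gm28635 for Csf1r (r = 0.885). These were the highest of all gene windows, which share libraries and list lengths with the receptors, so a high r is reached by some gene for any receptor.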

How the data were processed

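Peak lists of 16 ATAC-Seq libraries were used, 1 per library. Per the labels, the authors trimmed reads with cutadapt 1.9.1, aligned them to mm10 with Bowtie2 2.2.6 and called peaks on each library with MACS2 2.1.0; the study states that duplicates were removed and reads shifted for the transposase. The deposited columns hold a peak score, a fold enrichment ratio over the local background, the −log10 p and −log10 q, and the summit offset, all computed by the authors within 1 library. Depth per library is unknown, so list length stands in for it. Annotation was GENCODE M21.

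Ranks of −log10 p within a list and numbers of regions were fitted with limma 3.58.1 (R 4.3.3; trend, genotype and deposit set as terms, all 16 libraries), with Benjamini-Hochberg adjustment over all features at 0.05. Fold enrichment and the −log10 q entered as alternatives only, and the score was not tested. In simulated data for P300KO against WT, shifts of 4 SD planted at 200 of 39310 regions were recovered in 78.5% (8 false calls), and shifts of 2 SD in 0%. For 20248 gene windows the shares were 82 and 0%. Python 3.11.15 did the rest.

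The receptors, gene lists and regions were chosen with earlier results of these data known. Regions named were each receptor's start site and its 3 highest other regions, those called, and those gained or lost. Other regions named were chosen after their values were seen: those passing a looser rule, those at an unadjusted p of at most 0.05, and the shared regions listed for each window. Deviations of same-numbered libraries correlated at 0.135 to 0.565 around genotype means (24 pairs) but at −0.125 to 0.0419 around the means of genotype and set, where the libraries of a set mirror each other and only 12 values are distinct. The numbers were therefore taken to share the set and not to pair libraries. Deletion of Ep300 and Tet2 cannot be checked in peak lists.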

Additional observations from a re-analysis of the deposited data

Results flagged for a closer look

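Of 92 groups of 4 libraries checked, 9 held a library far from the other 3, and chance alone gives about 1 in 20 groups. The number of Csf1r regions was 9 in 1 WT library against 7 in each other, and 7 in 1 TET2KO library against 9 in each other. Csf2rb had 8 regions in 1 P300KO library against 13 in each other, Epor had 5 in 1 WT library against 6 in each other, and Tnfrsf1a had 8 in 1 WT library against 13 in each other. With such small whole numbers a step of 1 region is enough when the other 3 libraries tie.

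By rank percentile, WT replicate 1 was low at the Csf2rb region of −4.8 kb (80.9) and at the Il1rl1 region of −19.5 kb (27.3). TET2KO replicate 2 was low at the Il1rl1 region of −10.9 kb (16.7), and P300KO replicate 2 was low at the Flt3 region of +85.1 kb (56.7). These 4 values come from 3 libraries, all in set 1. WT replicate 1 is the list with the lowest share of peaks at a −log10 q of at least 2 (45.0%). Its part in these values was not tested.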

How the results depend on the processing

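The count of shared receptor regions called for p300 loss, 1 as reported (Flt3 +59.3 kb), was 0 over regions with a peak in at least 4 libraries, by fold enrichment, without a set term and with the replicate block (adjusted p at the Flt3 region = 0.0663, 0.0738, 0.412 and 0.0802), 2 when ranks were taken among shared regions (Flt3 +59.3 kb and Il1rl1 −19.5 kb), and 0 to 1 when a library was left out. With ranks among shared regions Tet2 loss had 2 calls as well, both at Csf1r. With the replicate block the calls over all shared regions for p300 loss were 19 higher and 129 lower in place of 43 and 217; the block changed no other receptor call. Presence calls moved under the rule of 3 of 4 against 1 of 4, to 2 for P300KO against WT, 5 for P300KO_TET2KO against TET2KO, 4 for TET2KO against WT and 2 for P300KO_TET2KO against P300KO, and to 0 for P300KO_TET2KO against TET2KO among the strongest 50000 peaks. Leaving out a library gave 1 to 2 for P300KO_TET2KO against TET2KO, 0 to 1 for TET2KO against WT and 0 to 1 for P300KO_TET2KO against P300KO. The cause was not tested. The other 288 values for whole comparisons kept their count. Refits of single regions were counted once per region and setting: 385 kept their side of the threshold, 19 lost it and 3 gained it, with 0 reversals. All 19 losses were at Flt3 +59.3 kb, the only region called as reported. Most of the 385 were regions not called in either fit, so this tally does not measure how firmly a call held. Each set alone was added after the data were seen. Depth may limit weak regions most, which was not tested. In the simulation of P300KO against WT no planted shift of 2 SD was found, and the pooled contrasts were not simulated.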
